A study of Mus musculus with 10 samples.

Results

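The 9 genes followed here belong to the energy buffer of muscle, and are the creatine kinases Ckm, Ckb and Ckmt2, the creatine synthesis genes Gatm and Gamt, the creatine transporter gene Slc6a8, the adenylate kinase gene Ak1, and the AMP deaminases Ampd1 and Ampd3. They were chosen by name, and each symbol was matched to 1 Ensembl identifier through the GENCODE M21 annotation of GRCm38. They are 9 of 49315 gene identifiers counted, and all 9 passed the filter on low counts that left 14714 genes. The libraries hold RNA from the gastrocnemius, a hindlimb muscle, of 10 male mice, labelled as C57BL6J in background. Of these, 5 were AHRfl/fl mice (labelled AHRfl, mice 11, 12, 13, 15 and 33), which carry floxed Ahr alleles without Cre. The other 5 were AHRmKO mice (labelled AHRmko, mice 8, 9, 19, 22 and 34), in which the MerCreMer recombinase of the HSA-MCM transgene, driven by the human ACTA1 promoter in skeletal myofibres, deletes the aryl hydrocarbon receptor (AHR) after tamoxifen. Every mouse of both groups breathed cigarette smoke for 16 weeks, in 2 sessions of 1 h on 5 days per week at 220 ± 80 mg/m3, starting 4 weeks after tamoxifen per the labels, and muscle was taken 72 h after the last exposure. The interval from tamoxifen is shorter in the main methods than in the labels, and the main text gives harvest as a range of hours that ends at this time. No air-exposed mouse is among these libraries, the mice are described as aged, their age in months not being given in the sources used here, and deletion by this promoter leaves the AHR of non-muscle cells in place. The methods also describe the red part of the gastrocnemius being cut away for fibre bundles, with the remainder used for other assays, so the libraries need not represent the whole muscle. The question for these genes was whether loss of the muscle AHR altered their RNA under smoke.

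Creatine kinase moves a phosphate group between ATP and creatine. The cytosolic muscle form regenerates ATP beside the contractile filaments, while the mitochondrial form charges creatine at the site of ATP production. Adenylate kinase makes ATP and AMP from ADP, and AMP deaminase then removes the AMP as IMP. Creatine itself is made in other organs by GATM and GAMT and taken up by myofibres through SLC6A8, and fast fibres are known for a high creatine kinase capacity.

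Total counts per mouse lay between 30393035 and 37954388, and a floor of 3 counts was, against the raw library total, between 0.079 and 0.0987 CPM. Gene values are given as CPM after TMM normalisation of the library sizes. This floor and the number of counts per gene describe counting error only. Ahr had between 43 and 110 counts in AHRfl/fl and between 31 and 80 in AHRmKO mice, and its groups overlapped. The deposited counts are per gene and hold no value for the floxed exon. Esr1, part of which is in the Cre transgene, had between 544 and 658 counts in AHRfl/fl and between 9770 and 24975 in AHRmKO mice, so the transgene labels matched the libraries. Xist, a transcript of the inactive X chromosome, had between 44 and 75 counts in 5 mice of both genotypes (AHRfl/fl mice 11, 15 and 33, AHRmKO mice 9 and 22) and at most 3 in the other 5, whereas Y-linked genes summed to at least 4329 counts in every mouse. The slow-fibre score, the mean log2 CPM of 10 slow-fibre marker genes, ran from 2.54 in AHRfl/fl mouse 12 to 7.64 in AHRmKO mouse 8 in a gradient that crossed both genotypes. Fast-fibre markers summed to between 134100 and 190900 CPM, so the libraries carried the markers of their labelled tissue. In these bulk samples, fewer cells of a type and less RNA per cell cannot be told apart.

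The start regions of 4 members are shown, those of the 3 creatine kinases and of Gatm, the first enzyme of creatine synthesis, because the AHR acts on DNA through a short core sequence. RefSeq windows of GRCm38.p6, from 250 bases before to 50 bases after a start, were found for 7 of the 9 members. The windows are the Ckm start (chr7:19410844-19411143, plus strand), the Ckb start (chr12:111672289-111672588, minus strand), the Ckmt2 start (chr13:91876836-91877135, minus strand) and the Gatm start (chr2:122611228-122611527, minus strand). Capitals mark matches to the AHR core GCGTG, to the E-box CANNTG that myogenic factors recognise, and to the MEF2 motif, each searched on both strands.
Ckm: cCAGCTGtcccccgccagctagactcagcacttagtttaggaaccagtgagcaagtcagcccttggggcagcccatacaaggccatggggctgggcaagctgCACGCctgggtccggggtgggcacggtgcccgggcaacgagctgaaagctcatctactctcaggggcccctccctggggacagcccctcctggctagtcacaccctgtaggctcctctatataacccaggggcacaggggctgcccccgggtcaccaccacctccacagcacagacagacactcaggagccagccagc
Ckb: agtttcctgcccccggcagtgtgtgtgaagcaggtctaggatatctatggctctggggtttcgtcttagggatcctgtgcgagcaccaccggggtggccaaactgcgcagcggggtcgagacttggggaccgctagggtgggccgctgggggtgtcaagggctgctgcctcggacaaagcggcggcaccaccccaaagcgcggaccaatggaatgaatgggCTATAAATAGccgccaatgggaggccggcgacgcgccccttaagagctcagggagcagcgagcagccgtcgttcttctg
Ckmt2: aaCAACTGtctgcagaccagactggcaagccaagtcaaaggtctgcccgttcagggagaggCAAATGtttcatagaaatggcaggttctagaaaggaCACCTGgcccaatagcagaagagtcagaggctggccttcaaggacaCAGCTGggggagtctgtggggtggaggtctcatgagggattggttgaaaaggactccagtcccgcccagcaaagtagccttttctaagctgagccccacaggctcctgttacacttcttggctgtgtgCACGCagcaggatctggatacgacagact
Gatm: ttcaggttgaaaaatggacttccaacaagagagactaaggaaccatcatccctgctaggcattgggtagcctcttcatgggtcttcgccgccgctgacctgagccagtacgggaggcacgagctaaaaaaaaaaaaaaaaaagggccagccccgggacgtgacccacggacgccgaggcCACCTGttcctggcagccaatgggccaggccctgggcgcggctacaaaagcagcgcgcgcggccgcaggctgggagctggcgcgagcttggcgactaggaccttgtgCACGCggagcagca
Counted from the start as +1, Ckm held an E-box at -249 and an AHR core, read as CACGC on this strand, at -148. The Ckb window held no AHR core and no E-box, and its MEF2 match at -29 overlaps a TATAAA that begins at -28. Ckmt2 held 4 E-boxes, at -248, -189, -153 and -107, and an AHR core at +22. Gatm held an E-box at -71 and an AHR core at +37. Of the members not printed, Gamt held an AHR core at -209, Ak1 has 4 windows of which 2 held one, and the 3 windows of Ampd3 held none. Among 32851 mouse windows of this length, 32.4% held an AHR core, 72.3% an E-box, 13.6% a TATAAA and 3.19% a MEF2 match. An AHR core or an E-box is therefore common in such windows, whereas a MEF2 match is not. A match is a description of the sequence, and the counts per gene do not tell which start of Ak1 or Ampd3 was used.

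Compared per length, the energy buffer RNA of this muscle was dominated by Ckm. Levels between genes are given as RPKM, the TMM-normalised CPM per kilobase of merged exons. Ckm stood at 8872 ± 1125 RPKM (SD, n = 10), 12.6 times the level of Ckmt2 (704 ± 171) and 3832 times that of Ckb (2.32 ± 0.518). Ckm alone took between 2.26% and 2.96% of all counts in a library, and the 9 genes together between 2.63% and 3.34%. Ak1 followed at 656 ± 77.5 RPKM and Ampd1 at 291 ± 43.4 RPKM. The creatine transporter gene Slc6a8 reached 21.3 ± 1.82 RPKM and the methyltransferase gene Gamt 13.2 ± 3.57 RPKM. The lowest levels per length were those of Ampd3 (2.58 ± 0.413), Ckb and Gatm (1.32 ± 0.484). In the order of levels, Ckmt2 and Ak1 were not separated, with Ckmt2 above Ak1 in 6 of 10 mice, nor were Ampd3 and Ckb, with Ampd3 above in 5 of 10. Ckb was above Gatm within each of the 10 mice although the ranges of these genes overlapped. Every other neighbour in the order was separated in all 10 mice without overlap.

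**Figure D1:**
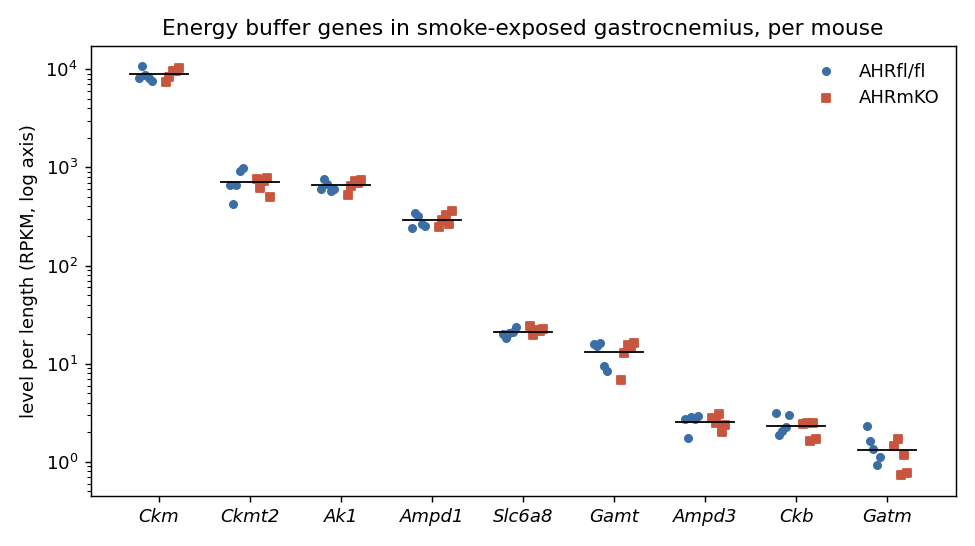
Level per length (RPKM, log axis) of the 9 genes, ordered by mean, with 1 point per mouse, circles for AHRfl/fl, squares for AHRmKO and a line at the mean of 10 mice. Ckm lies at 8872 RPKM on average and Gatm at 1.32 RPKM, and the genotypes overlap in every gene.

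Within each enzyme family a single gene held most of the RNA. Ckm was between 88.4% and 96.2% of the summed creatine kinase RPKM, and Ckmt2 between 3.82% and 11.5%. Ckb, the brain-type form, never exceeded 0.0358% of this sum, and Ckmt1, the ubiquitous mitochondrial form, never exceeded 0.00336%. Ak1 was between 92.7% and 94.95% of the adenylate kinase RPKM over Ak1 to Ak9, and Ampd1, the muscle-type deaminase, between 98.4% and 99.3% of the AMP deaminase RPKM. Ampd1 was 113 times the level of Ampd3, the form named for red blood cells, and Gamt was 9.96 times the level of Gatm.

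No difference between AHRmKO and AHRfl/fl muscle under smoke passed the test in any of the 9 genes. By edgeR's quasi-likelihood test, the adjusted p was under 0.05 in 0 of 9, where 0.0068% of all 14714 genes passed, and 0 of 9 had an unadjusted p under 0.05, where 6.61% of all genes had. The 1 gene that passed by edgeR was Esr1, part of which is in the Cre transgene. The DESeq2 Wald test likewise called 0 of 9, against 0.193% of the genes it gave an adjusted p, and limma-voom called 0 of 9, against 0.0068% of all genes. In 0 of 9 were the 5 AHRmKO mice all above or all below the 5 AHRfl/fl mice, where 1.4% of all genes were so separated. The fitted log2 fold changes, AHRmKO against AHRfl/fl, were above 0 in 5 genes and below 0 in 4, and Gamt among the former turned below 0 when scaled by library size alone. Their median was 0.0056, beside 0.0057 over all genes tested. The lowest adjusted p of the 9 was 0.879 (edgeR). The intervals set the limits of this comparison. For Ckm, Slc6a8 and Ak1 they stayed within 0.32 on the log2 scale in either direction, whereas for Gatm they reached from -0.95 to 0.30.

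**Figure D2:**
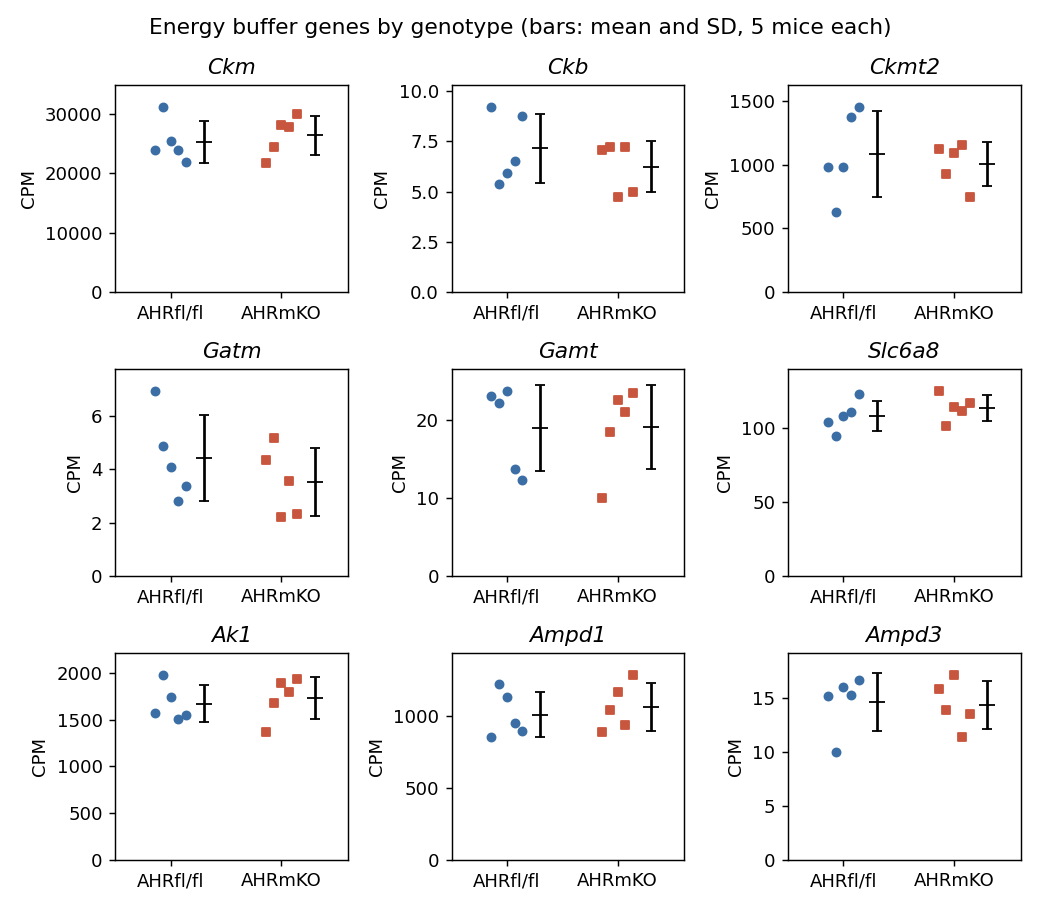
TMM-normalised CPM of each gene in every mouse, by genotype, with axes from 0; bars give the mean and SD of 5 mice. In all 9 genes the points of the genotypes overlap, for example from 21840 to 31140 CPM in AHRfl/fl and from 21760 to 29990 CPM in AHRmKO for Ckm.

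Ckm (ENSMUSG00000030399, chromosome 7 of GRCm38, 19404776 to 19422841, plus strand) encodes the cytosolic muscle creatine kinase. It had 23960, 31140, 25470, 23880 and 21840 CPM in AHRfl/fl mice 11, 12, 13, 15 and 33. In AHRmKO mice 8, 9, 19, 22 and 34 it had 21760, 24450, 28120, 27840 and 29990 CPM. The highest and lowest mice, AHRfl/fl mouse 12 and AHRmKO mouse 8, are of opposite genotypes, and the whole range spans only 1.43-fold. The means were 25260 ± 3531 CPM (SD, n = 5) and 26430 ± 3289 CPM (SD, n = 5), a difference of 0.07 on the log2 scale (SE 0.116, 95% interval -0.18 to 0.32, edgeR adjusted p = 0.953). Exons of Ckm share 451 nt with an antisense gene, A930016O22Rik, whose 16065 counts over all mice compare with 9143919 for Ckm.

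Ckmt2 (ENSMUSG00000021622, chromosome 13, 91853387 to 91876885, minus strand) encodes the mitochondrial creatine kinase of striated muscle. It had 979, 631, 982, 1378 and 1452 CPM in AHRfl/fl mice 11, 12, 13, 15 and 33, and 1122, 927, 1092, 1157 and 744 CPM in AHRmKO mice 8, 9, 19, 22 and 34. AHRfl/fl mice held both the highest and the lowest values, 2.30-fold apart, and enclosed the AHRmKO mice. The genotypes differed in Ckmt2 by -0.10 on the log2 scale (SE 0.212, 95% interval -0.57 to 0.36, edgeR adjusted p = 0.956), and without AHRfl/fl mouse 33 it was 0.023.

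Ckb (ENSMUSG00000001270, chromosome 12, 111669361 to 111672338, minus strand), the brain-type creatine kinase, was counted only between 166 and 324 times per mouse. It had 9.21, 5.39, 5.92, 6.52 and 8.75 CPM in AHRfl/fl mice 11, 12, 13, 15 and 33, and 7.07, 7.22, 4.74, 7.204 and 4.99 CPM in AHRmKO mice 8, 9, 19, 22 and 34. AHRfl/fl mice 11 and 33 were above every AHRmKO mouse, and the other 3 lay inside the AHRmKO range. Between the genotypes Ckb differed by -0.20 on the log2 scale (SE 0.178, 95% interval -0.58 to 0.19, edgeR adjusted p = 0.882).

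Gatm (ENSMUSG00000027199, chromosome 2, 122594467 to 122611303, minus strand) encodes the amidinotransferase of the first step of creatine synthesis. It was the least abundant member, with between 77 and 244 counts, and the most variable, 3.16-fold from the lowest to the highest mouse. AHRfl/fl mice 11, 12, 13, 15 and 33 had 6.94, 4.87, 4.09, 2.80 and 3.37 CPM, and AHRmKO mice 8, 9, 19, 22 and 34 had 4.33, 5.18, 2.20, 3.55 and 2.33 CPM. The highest value was in an AHRfl/fl mouse and the lowest 2 were in AHRmKO mice, with overlap between. The log2 fold change of -0.33 was the largest of the 9 in size with all mice (SE 0.285, 95% interval -0.95 to 0.30, edgeR adjusted p = 0.879). Without AHRfl/fl mouse 11 it was -0.10, when that of Ckmt2 was -0.14, and it was -0.19 without AHRmKO mouse 19, -0.21 without AHRmKO mouse 34 and -0.50 without AHRmKO mouse 9.

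Gamt (ENSMUSG00000020150, chromosome 10, 80258151 to 80261012, minus strand) encodes the methyltransferase that completes creatine. It had 23.1, 22.1, 23.7, 13.7 and 12.3 CPM in AHRfl/fl mice 11, 12, 13, 15 and 33, and 9.93, 18.5, 22.5, 21.03 and 23.4 CPM in AHRmKO mice 8, 9, 19, 22 and 34. Mice 15, 33 and 8, which are of both genotypes, were low. The means were 18.96 ± 5.49 and 19.06 ± 5.44 CPM (SD, n = 5 each), a difference of 0.0056 on the log2 scale (SE 0.264, 95% interval -0.58 to 0.59, edgeR adjusted p = 0.999).

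Slc6a8 (ENSMUSG00000019558, chromosome X, 73673150 to 73682502, plus strand), which encodes the creatine transporter of the plasma membrane, was the steadiest member, 1.32-fold from lowest to highest. AHRfl/fl mice 11, 12, 13, 15 and 33 had 104, 94.5, 108, 111 and 123 CPM, and AHRmKO mice 8, 9, 19, 22 and 34 had 125, 101, 114, 111 and 117 CPM. The genotypes overlapped over most of their ranges. In AHRmKO against AHRfl/fl mice the log2 difference of Slc6a8 was 0.07 (SE 0.0783, 95% interval -0.10 to 0.24, edgeR adjusted p = 0.902).

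Ak1 (ENSMUSG00000026817, chromosome 2, 32621758 to 32635058, plus strand), the cytosolic adenylate kinase, had 1574, 1980, 1743, 1504 and 1551 CPM in AHRfl/fl mice 11, 12, 13, 15 and 33. AHRmKO mice 8, 9, 19, 22 and 34 had 1372, 1680, 1887, 1796 and 1935 CPM. As for Ckm, the highest mouse was AHRfl/fl mouse 12 and the lowest AHRmKO mouse 8. Ak1 differed by 0.05 on the log2 scale between the genotypes (SE 0.106, 95% interval -0.17 to 0.28, edgeR adjusted p = 0.956).

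Ampd1 (ENSMUSG00000070385, chromosome 3, 103074014 to 103099720, plus strand) encodes the AMP deaminase of myofibres. It had 851, 1217, 1126, 949 and 893 CPM in AHRfl/fl mice 11, 12, 13, 15 and 33, and 885, 1036, 1162, 934 and 1283 CPM in AHRmKO mice 8, 9, 19, 22 and 34. The ranges of the genotypes nearly coincided. For Ampd1 the log2 difference came to 0.07 (SE 0.123, 95% interval -0.19 to 0.34, edgeR adjusted p = 0.949), and without AHRmKO mouse 34 it was -0.0046.

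Ampd3 (ENSMUSG00000005686, chromosome 7, 110768206 to 110812405, plus strand) had 15.2, 9.98, 16.0, 15.3 and 16.7 CPM in AHRfl/fl mice 11, 12, 13, 15 and 33, and 15.9, 13.9, 17.2, 11.4 and 13.5 CPM in AHRmKO mice 8, 9, 19, 22 and 34. AHRfl/fl mouse 12 stood below all others. The genotypes differed in Ampd3 by -0.026 on the log2 scale (SE 0.141, 95% interval -0.33 to 0.28, edgeR adjusted p = 0.988). Its exons share 195 nt with Rnf141 on the opposite strand, which had 7191 counts over all mice against 5128 for Ampd3, and since the sources used here do not say whether the libraries were stranded, the level of Ampd3 is uncertain.

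**Figure D3:**
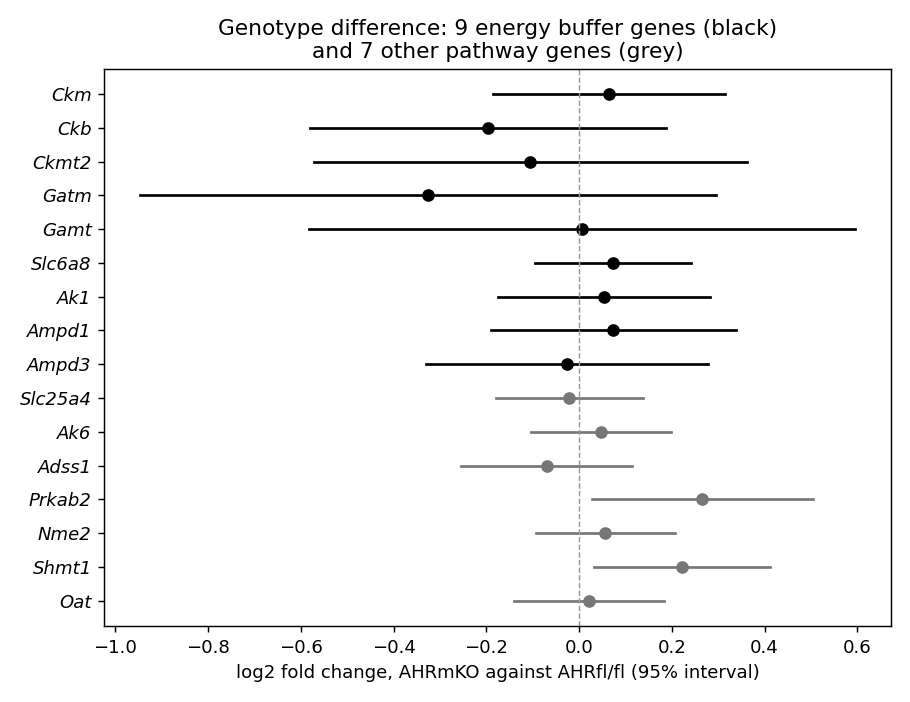
Log2 fold change of AHRmKO against AHRfl/fl muscle with its 95% interval from edgeR, for the 9 genes (black) and 7 further pathway genes (grey). The intervals of all 9 cross 0, from the widest for Gatm (-0.95 to 0.30) to the narrowest for Slc6a8 (-0.10 to 0.24).

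The balance between members within a mouse does not depend on library scaling, and it too was compared between genotypes as log2 ratios of counts. Ak1/Ckm was the tightest ratio, at -3.92 ± 0.073 in AHRfl/fl and -3.93 ± 0.0496 in AHRmKO mice (SD, n = 5 each), a difference of -0.016 (two-sided exact permutation test, p = 0.706). Ckmt2/Ckm, the mitochondrial against the cytosolic kinase, differed by -0.13 (exact permutation p = 0.714). Ckb/Ckm differed by -0.26 (exact permutation p = 0.405) and Ampd3/Ampd1 by -0.091 (exact permutation p = 0.730). Gamt/Gatm differed by 0.33 (exact permutation p = 0.452), with an SD of 0.322 in AHRfl/fl and 0.940 in AHRmKO mice, and ran from 0.11 without AHRmKO mouse 19 to 0.65 without AHRmKO mouse 8. Adjusted over the 5 ratios, every p was 0.730. The smallest p that 5 mice against 5 allow is 0.00794.

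No other gene of the pathway passed the test either. Of 44 further genes listed, 38 were tested. The adjusted p was under 0.05 for 0 of them by edgeR, beside 0.0068% of all genes, for 0 by DESeq2, beside 0.193%, and for 0 by limma-voom, beside 0.0068%. Among the 38, 2 had an unadjusted p under 0.05, beside 6.61% of all genes, and in 0 did the genotypes separate, beside 1.4% of all genes. Their fold changes were above 0 in 20 and below 0 in 18, with a median of 0.023 that ran from -0.0013 without AHRfl/fl mouse 12 to 0.062 without AHRfl/fl mouse 15. Of 5 creatine kinase and transport genes 1 was above 0, and the most abundant, Slc25a4, the heart and muscle ADP/ATP carrier, had 3834 ± 88.7 and 3780 ± 291 CPM (SD, n = 5 each). Of 4 adenylate kinase genes tested, 3 were above 0. The leading gene Ak6 had 43.7 ± 2.88 and 45.2 ± 3.59 CPM, while Ak5, Ak7, Ak8 and Ak9 had at most 12 counts in any mouse and were not tested. In the purine nucleotide cycle and salvage list, 6 of 13 were above 0. Adss1, the muscle adenylosuccinate synthase that returns IMP towards AMP, had 1261 ± 84.9 and 1201 ± 131 CPM.

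Of 7 subunits of AMPK, the kinase that senses AMP, 5 were above 0. Prkab2, a beta subunit, had 346 ± 57.6 CPM in AHRfl/fl and 416 ± 41.0 in AHRmKO mice, with a log2 fold change of 0.27 (SE 0.110, unadjusted p = 0.0307, edgeR adjusted p = 0.707). Its ranges, from 274 to 422 and from 379 to 469 CPM, overlapped. Of 4 nucleoside diphosphate kinase genes tested 2 were above 0, the leading gene Nme2 having 122 ± 4.51 and 127 ± 11.7 CPM. Of 5 arginine and glycine supply genes tested 3 were above 0. Shmt1, the cytosolic serine hydroxymethyltransferase, which makes glycine, had 8.85 ± 0.546 and 10.3 ± 0.988 CPM and a log2 fold change of 0.22 (SE 0.0882, unadjusted p = 0.0252, edgeR adjusted p = 0.691). Its ranges, from 8.33 to 9.63 and from 9.20 to 11.8 CPM, also overlapped. Oat, the ornithine aminotransferase gene, had 157 ± 18.2 and 159 ± 2.61 CPM.

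Among the 10 mice, Ckm, Ak1, Ampd1, Gamt and Ckb were linked in pairs, whereas Ckmt2, Gatm, Slc6a8 and Ampd3 were in no pair that passed the adjustment. Of 36 pairs of members, 5 had a correlation of log2 CPM with an adjusted p under 0.05 over the 36. Ckm and Ak1 were the closest pair (Pearson's r = 0.945, permutation p = 7e-05; Spearman's rho = 0.988, permutation p = 2e-05, adjusted p for r = 0.00252), and r was 0.910 without the 2 mice farthest from the median of Ckm. Within genotypes r was 0.928 in AHRfl/fl and 0.969 in AHRmKO mice. Ampd1 ran with Ak1 (r = 0.839, permutation p = 0.00348; rho = 0.806, permutation p = 0.00703, adjusted p = 0.0313), with r = 0.812 without the 2 farthest mice. It also ran with Ckm (r = 0.816, permutation p = 0.00619; rho = 0.830, permutation p = 0.00462, adjusted p = 0.0446), with r = 0.634 without AHRfl/fl mouse 12 and AHRmKO mouse 34. Gamt and Ak1 had r = 0.826 (permutation p = 0.00208; rho = 0.661, permutation p = 0.0439, adjusted p = 0.025) and r = 0.648 without the 2 farthest mice. Ckb ran against Ampd1 (r = -0.899, permutation p = 0.00049; rho = -0.842, permutation p = 0.00359, adjusted p = 0.00882), with r = -0.892 without the 2 farthest mice, -0.938 within AHRfl/fl and -0.864 within AHRmKO. Mice rich in Ckm were also rich in Ak1 and Ampd1, and mice rich in Ampd1 were poor in Ckb. The direction of these 5 relations was the same with library size alone, where r for Ckm with Ampd1 was 0.674, and with DESeq2's size factors.

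**Figure D4:**
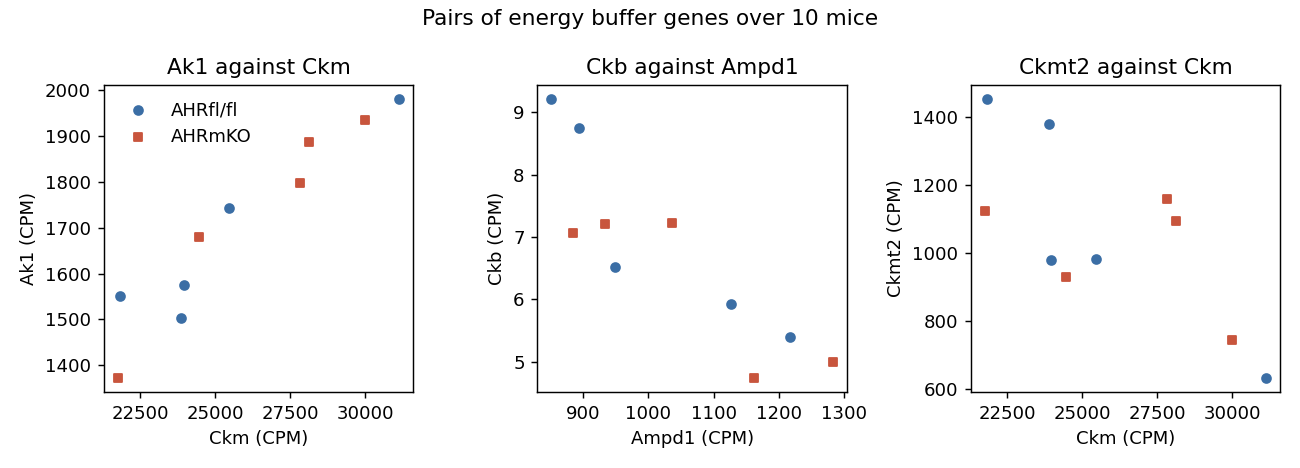
TMM-normalised CPM of Ak1 against Ckm, of Ckb against Ampd1 and of Ckmt2 against Ckm, with 1 point per mouse, circles for AHRfl/fl and squares for AHRmKO. Ak1 follows Ckm (r = 0.945 of log2 CPM), Ckb falls as Ampd1 rises (r = -0.899), and Ckmt2 against Ckm (r = -0.734, adjusted p = 0.072 from the permutation test) does not pass, with r = -0.334 without the 2 mice farthest in Ckm.

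Ckmt2 followed the slow-fibre markers, but its extremes were shared with Myh2, a myosin gene of the fast-fibre list. Each member was compared with 10 marker scores, 90 relations in all, of which 5 had an adjusted p under 0.05 over the 90. Ckmt2 and the slow-fibre score had r = 0.846 (permutation p = 0.00141; rho = 0.806, permutation p = 0.00728, adjusted p = 0.0317). Without AHRfl/fl mouse 12 and AHRmKO mouse 8, the farthest in score, r was 0.804, and it was 0.965 within AHRfl/fl and 0.749 within AHRmKO. The summed CPM of the 10 slow-fibre markers ran from 115 to 2255 in AHRfl/fl and from 341 to 2615 in AHRmKO mice, and the slow myosin gene Myh7 from 115 to 24041 counts. Myh2 was lowest in AHRfl/fl mouse 12 (297 CPM) and highest in AHRfl/fl mice 15 and 33 (4218 and 4135 CPM). Ckmt2 was lowest and highest in the same mice (631, 1378 and 1452 CPM). AHRfl/fl mouse 13 had 9.34 CPM of Myh7 but 982 CPM of Ckmt2. The relation of Ckmt2 to Myh2 alone was not tested. The ratio Ckmt2/Ckm also rose with the score (r = 0.798, permutation p = 0.00404; rho = 0.818, permutation p = 0.00577, adjusted p over the 5 ratios = 0.0202), with r = 0.648 without the 2 farthest mice. Ckmt2 against Ckm itself had r = -0.734 (permutation p = 0.0149; rho = -0.673, permutation p = 0.039, adjusted p = 0.072 over the 36 pairs), and r = -0.334 without the 2 mice farthest in Ckm. With 1 mouse left out it lay between -0.808 and -0.598. Leaving out the 2 farthest mice also narrows the range of Ckm, so whether the relation rested on them was not tested.

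The remaining members had relations to the slow-fibre score that did not pass the adjustment over the 90. The design had set an adjustment over the 9 members for this score. By that, Slc6a8 passed (adjusted p = 0.027 from the permutation test) beside Ckmt2 (adjusted p = 0.0127), and no other member did. Adjusted p below are over the 90. Slc6a8 had r = 0.799 (permutation p = 0.00599; rho = 0.782, permutation p = 0.0107, adjusted p = 0.077), which became 0.573 without the 2 farthest mice. Gamt had r = -0.703 (permutation p = 0.0254; rho = -0.588, permutation p = 0.0803, adjusted p = 0.134) and -0.649 without the 2 farthest mice. For Ak1, Ampd1 and Ckm r was -0.634, -0.605 and -0.556, with adjusted p of 0.203, 0.216 and 0.285 from the permutation test. Without the 2 farthest mice these became -0.310, -0.402 and -0.160.

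Gatm followed the markers of adipocytes, another cell type that a muscle sample can hold. With the adipocyte score (Adipoq, Plin1, Cidec, Lep and Retn, of which 4 were tested) r was 0.890 (permutation p = 0.00072; rho = 0.927, permutation p = 0.00029, adjusted p = 0.0317), and 0.815 without AHRfl/fl mouse 11 and AHRmKO mouse 9. Within genotypes r with the adipocyte score was 0.987 in AHRfl/fl and 0.995 in AHRmKO mice. The summed CPM of the adipocyte markers ran from 2.75 to 18.3 in AHRfl/fl and from 2.93 to 20.2 in AHRmKO mice. No marker of the list was at 0 in any mouse. Adipoq had at least 28 counts, whereas Lep fell to 1 count in AHRfl/fl mouse 15, below the floor of 3. The part of these cells in the Gatm counts was not tested.

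Ckm and Ak1 ran against the endothelial score (Pecam1, Cdh5, Kdr, Tie1 and Emcn). For Ckm r was -0.875 (permutation p = 0.00125; rho = -0.903, permutation p = 0.00084, adjusted p = 0.0317) and -0.772 without the 2 farthest mice, and for Ak1 r was -0.886 (permutation p = 0.00088; rho = -0.915, permutation p = 0.0005, adjusted p = 0.0317) and -0.763 without them. Ampd1 ran against the smooth muscle score (Myh11, Acta2, Cnn1 and Tagln), with r = -0.818 (permutation p = 0.00268; rho = -0.879, permutation p = 0.0017, adjusted p = 0.0482) and -0.777 without the 2 farthest mice. Ckb (r = 0.743) and Ak1 (r = -0.766) did not pass with this score, each at an adjusted p of 0.0815 from the permutation test. Without the 2 farthest mice their r was 0.779 and -0.658. No relation to the fast-fibre, fibroblast, macrophage, red blood cell, satellite cell or denervation and atrophy scores had an adjusted p under 0.05. The lowest adjusted p by the permutation test was 0.0815 for the fibroblast and 0.077 for the denervation and atrophy score, in each case with Ampd1 at that value. Ckmt2 also had 0.0815 with the fibroblast score (r = 0.746, permutation p = 0.0117; rho = 0.721, permutation p = 0.0231), with r = 0.695 without the 2 farthest mice. For Ampd1 r was -0.831 with the fibroblast score (permutation p = 0.00747; rho = -0.709, permutation p = 0.0277) and -0.907 without the 2 farthest mice. With the denervation and atrophy score it was 0.811 (permutation p = 0.00537; rho = 0.661, permutation p = 0.0435) and 0.563 without AHRfl/fl mouse 12 and AHRmKO mouse 34. Endothelial markers summed to between 123 and 186 CPM in AHRfl/fl and between 135 and 235 in AHRmKO mice, and smooth muscle markers to between 73.1 and 140 and between 73.1 and 153 CPM. Neither score separated the genotypes (exact permutation p = 0.675 and 0.778, two-sided). The part of these cells in the relations was not tested.

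**Figure D5:**
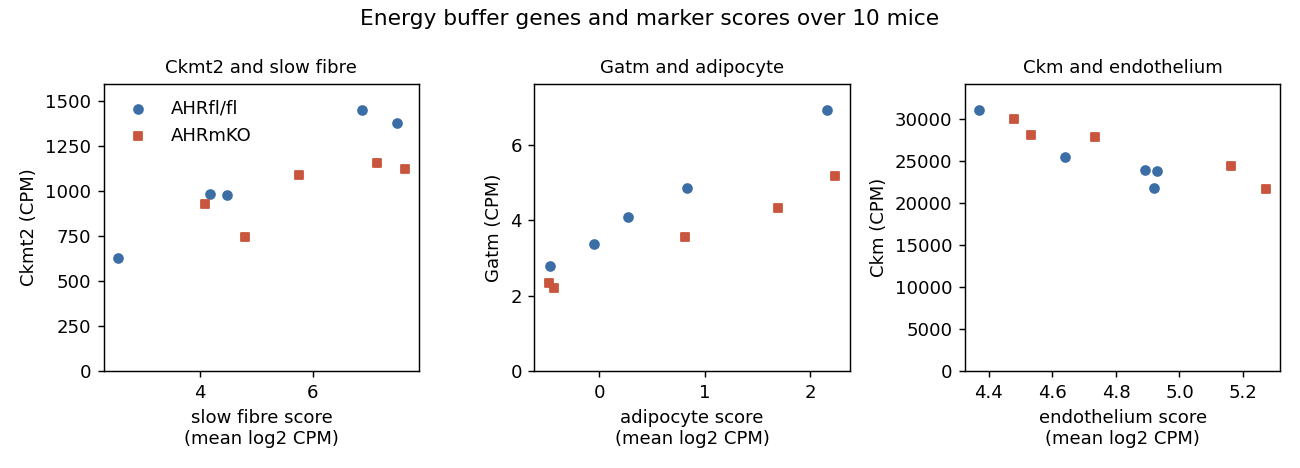
CPM of Ckmt2 against the slow-fibre score, of Gatm against the adipocyte score and of Ckm against the endothelial score (mean log2 CPM of each marker list), with 1 point per mouse, circles for AHRfl/fl and squares for AHRmKO. Ckmt2 climbs with the slow-fibre score (r = 0.846), Gatm climbs with the adipocyte score (r = 0.890), and Ckm falls as the endothelial score climbs (r = -0.875).

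Searched against 6969 genes with at least 10 CPM, the closest genes to each of 5 members over the 10 mice are given as a description. Nearest to Ckm were Pvalb, the calcium buffer of fast fibres (r = 0.993), Sar1b (0.983) and Jpt1 (0.981). With the score of all 10 fast-fibre markers, Pvalb among them, Ckm had r = 0.134 and Ak1 r = 0.108, and with library size only -0.359 and -0.362. Leaving out 1 mouse moved these between -0.052 and 0.527 for Ckm and between -0.0089 and 0.419 for Ak1. Without AHRfl/fl mice 11 and 12 these r were 0.585 and 0.413, so no direction is read from this score. Its genes did not move alike. Myh2 spanned 14.2-fold and Myh1 3.84-fold over the mice, against 1.61-fold for Myh4. AHRfl/fl mouse 12, the highest in Ckm, had the highest Myh4 (66540 CPM) and the lowest Myh2 (297 CPM). Relations to the other single fast-fibre markers were not tested. Ak1 was nearest to Myoz1 (0.967), a Z-disc gene of fast fibres, to Aldoa, the muscle aldolase (0.965), and to R3hdm4 (0.964). For Ckmt2 they were Mdh1 (0.980), the cytosolic malate dehydrogenase, Sdhb (0.977), a subunit of respiratory complex II, and Atp1b1 (0.971), a sodium pump subunit. Ckb ran with Col15a1 (0.896), a basement membrane collagen, Myl9 (0.894), a smooth muscle myosin light chain, and Lims1 (0.862). Ampd3 ran with Impdh1 (0.914), an enzyme that takes IMP towards guanine nucleotides, with Kalrn (0.889) and with Ripor1 (0.870). Each r is a likeness of log2 CPM among the highest of many genes that share the same libraries.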

How the data were processed

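RNA of 10 gastrocnemius samples, 5 AHRfl/fl and 5 AHRmKO mice, was sequenced. The submitters' processing notes name Trimmomatic 0.36, STAR 2.5.2b and GRCm38, and the paper's methods name featureCounts for uniquely mapped reads on exons. The authors deposited raw counts per Ensembl gene, 1 column per mouse, neither normalized nor pooled. Counting was by strand if the library was stranded, but whether it was, and the Ensembl release, are not given in the sources used here.

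Symbols, positions and exon lengths came from GENCODE M21, which holds 49056 of the 49315 identifiers. Of 45 pathway genes listed, 44 were matched, and Pnp was not analysed here. In R 4.3.3, genes were kept by filterByExpr (minimum count 10, minimum total count 15), normalized by TMM and compared by the quasi-likelihood test of edgeR 4.0.16 (robust=TRUE), with p adjusted by Benjamini-Hochberg over 14714 genes. The fit was tested on simulated data. CPM are TMM-normalized, log2 CPM used a prior count of 2, and ratios of counts had 0.5 added. For single values, exact two-sided permutation over all 252 assignments of mice was used, and for correlations across mice 100000 permutations. Each mouse was 1 replicate, no library repeated another, and no batch or litter is labelled. Total counts per mouse and the floor of 3 counts are given above, and counting error is largest for Gatm and Ckb, which had the fewest counts. The SE of the fold change, which includes the spread between mice, was larger for Gamt (0.264) and Ckmt2 (0.212) than for Ckb (0.178).

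Every member was named. Further named genes were Ahr and Esr1 as checks, the gene with the highest level per length of each pathway list, those with an unadjusted p under 0.05 or separate groups, and the 3 closest genes to 5 members. Xist and single marker genes were named after their values were seen. The members and the lists were chosen with earlier results of these data known. Alternatives were DESeq2 1.42.0, limma-voom (limma 3.58.1), other scaling, filters and covariates, and leaving out each mouse. Covariates for the adipocyte score and for the presence of more than 10 Xist counts were chosen after seeing the data. Promoter windows came from RefSeq (GRCm38.p6). A further marker list is not reported here.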

Additional observations from a re-analysis of the deposited data

Results flagged for a closer look

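In 2 of 42 groups of 5 mice looked at, 1 mouse stood apart from the other 4 by Dixon's criterion, a gap to the nearest mouse of more than 0.71 of the group's range. Gamt in AHRmKO mouse 8 was low, at 9.93 CPM against 18.5 to 23.4 CPM in the other AHRmKO mice, a gap of 0.722 of the range of log2 CPM. That mouse also had the highest slow-fibre score, 7.64. Ampd3 in AHRfl/fl mouse 12 was low, at 9.98 CPM against 15.2 to 16.7 CPM in the other AHRfl/fl mice, a gap of 0.825, and that mouse had the lowest slow-fibre score, 2.54. Chance alone marks about 1 in 20 such groups, or 2.1 of 42.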

How the results depend on the processing

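No paired analysis was possible because the mouse numbers do not repeat between the genotypes. The number of members and of pathway genes with an adjusted p under 0.05 was 0 under every setting run, each mouse left out included. Over all genes the number was 1 (Esr1, by edgeR with all mice), and 21 with DESeq2, 5 without the filter on low counts and 2 with the slow-fibre score in the model. Leaving out each mouse gave between 1 and 6 genes, 6 without AHRmKO mouse 34. The cause was not tested.

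Signs of small fold changes turned. With each mouse left out in turn, Ckmt2 ran from -0.25 to 0.023, Gamt from -0.12 to 0.17, Ampd1 from -0.0046 to 0.15 and Ampd3 from -0.14 to 0.046. Gamt was -0.014 with limma-voom, -0.011 with library size only and -0.016 with Xist presence in the model. Xist presence gave 0.0025 for Ckmt2, and it moved Ckb from -0.1955 to -0.0975 without changing its sign. Of the ratios, leaving out a mouse moved Ckmt2/Ckm between -0.39 and 0.042, Ak1/Ckm between -0.034 and 0.0092 and Ampd3/Ampd1 between -0.29 and 0.0018. Without changing sign, Ckb/Ckm moved between -0.43 and -0.13, Gamt/Gatm between 0.11 and 0.65, and the fold changes of Gatm between -0.50 and -0.10, Ckb between -0.28 and -0.088, Ckm between 0.016 and 0.15, Slc6a8 between 0.028 and 0.12 and Ak1 between 0.011 and 0.13. With the slow-fibre score in the model, Ckm was 0.12 and Ckmt2 was -0.21. With all 10 mice, the other settings moved Gamt between -0.016 and 0.18, Ak1 between 0.034 and 0.11 and Ampd1 between 0.028 and 0.14. Gatm moved between -0.44 and -0.21, Slc6a8 between 0.033 and 0.085 and Ampd3 between -0.065 and -0.016. The median of the pathway genes was 0.0031 with the slow-fibre score in the model and 0.0064 with library size only. No adjusted p of a member's fold change fell under 0.606 in any setting.

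Without the 2 mice farthest in slow-fibre score, r with it was -0.649 for Gamt (permutation p = 0.0852), 0.573 for Slc6a8 (permutation p = 0.145) and -0.109 for Ampd3, which was 0.430 with all mice. Centred on genotype means, r was -0.698 for Ak1 (permutation p = 0.0248) and -0.678 for Ampd1 (permutation p = 0.0365), whereas without those 2 mice it was -0.310 (permutation p = 0.439) and -0.402 (permutation p = 0.311). Ckm has no value where Ckm was left out of the counts. Counting error is largest for Gatm (from 77 counts) and Ckb (from 166 counts).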
